A study of Homo sapiens with 32 samples.

Results

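This is a comparison of U2OS cells without ATM and U2OS cells with ATM, in 8 of the 32 libraries of the series. U2OS is a human osteosarcoma line. The 4 libraries numbered 2, 4, 6 and 8 in their titles were taken as ATM knockout (KO) and the 4 numbered 1, 3, 5 and 7 as wild type (WT). This identity is inferred and goes against the deposited labels. The labels call libraries 2, 4, 6 and 8 HEK293T cells treated with camptothecin (CPT), libraries 3, 5 and 7 HEK293T cells treated with DMSO, and library 1 U2OS WT. The labels give the HEK293T libraries 24 h of treatment and 48 h of recovery, and the untreated U2OS cells 72 h of growth. The grouping was chosen by the measured counts themselves, since all 8 libraries have a U2OS profile and the split had earlier been matched gene by gene to the KO comparison the study describes. Differences between the 2 sets are therefore given as a description, with standard errors (SE) and without p-values. The study's methods state that the KO cells were made with CRISPR/Cas9 and homology-directed repair plasmids and that individual clones were picked. The number of clones behind the 4 libraries is not given in the sources used here, so effects of ATM loss and of clonal origin cannot be told apart in these samples. In bulk RNA, fewer cells of a kind and less RNA per cell cannot be told apart either. Wherever "KO" and "WT" are written for these 8 libraries, they stand for the inferred identity.

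ATM is a serine/threonine kinase that is activated by DNA double-strand breaks and by oxidation. It phosphorylates CHK2 and many other proteins, which arrests the cell cycle and promotes repair. Its loss causes ataxia telangiectasia. A cell line grown from a single edited cell also carries whatever deletions, gains and silenced promoters that cell had, and osteosarcoma cells such as U2OS have unstable chromosomes.

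The profile of the 8 libraries is that of U2OS cells. Across 11249 genes, the Spearman correlation with the mean of the libraries labelled U2OS DMSO (numbers 30 to 33) was 0.954 to 0.969 for WT and 0.925 to 0.937 for KO. With the libraries labelled HEK293T DMSO (22 to 25) it was 0.68 to 0.699 for WT and 0.675 to 0.686 for KO. The 7 libraries numbered 10 to 16, whose labels do read U2OS ATM KO or U2OS WT, had the reverse profile (0.897 to 0.964 with HEK293T DMSO and 0.666 to 0.695 with U2OS DMSO) and were not compared here. All 12 markers chosen for U2OS, among them VIM, CD44 and COL1A1, were nearer to U2OS DMSO than to HEK293T DMSO in both sets, and their summed level was 5963 to 7229 counts per 1000000 counts on genes (CPM) in WT and 3998 to 4776 CPM in KO, against 745 to 994 CPM in HEK293T DMSO. Of the 12 HEK293T markers, 11 in WT and 10 in KO were nearer to U2OS DMSO, their summed level was 804 to 1057 CPM in WT and 668 to 847 CPM in KO against 1488 to 1577 CPM in HEK293T DMSO, and none was at 0 in any set. The WT libraries held 1416967 to 3667632 gene counts each and the KO libraries 1232674 to 5818796, so that 3 counts in 1 library equal 0.516 to 2.43 CPM. Library 8 stood apart from the other KO libraries. It differed from each of them by a chi-square per degree of freedom of 12.4 to 24.8, against 3.03 to 4.70 among the other 3. In WT the pairs with library 7 were at 8.90 to 12.3 and the others at 4.76 to 6.63. Library 8 also had the lowest share of counts on mitochondrial genes of the 8 libraries (21.6%, against 23.1% to 38.0%). Library 7 had the next lowest (23.1%). The deviations of libraries 7 and 8 from the means of their sets correlated by 0.521, the highest value for any WT and KO library. The labels pair no libraries, and the SE given below take them as unpaired.

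ATM itself was still transcribed in the KO libraries. ATM (ENSG00000149311, chromosome 11, 108222484 to 108369102, plus strand, GRCh38 in GENCODE 29) was at 57.2, 68.4, 53.4 and 63.5 CPM in WT libraries 1, 3, 5 and 7. It was at 61.6, 52.9, 54.7 and 34.2 CPM in KO libraries 2, 4, 6 and 8. The ranges overlapped, and library 8 alone lay below every WT library. The log2 fold change was -0.31 ± 0.17 (SE, 4 against 4 libraries), and -0.12 without library 8. Reads of this method come from the 3′ end of a transcript and the edited site is not given in the sources used here, so this level does not check the knockout. In the libraries labelled U2OS DMSO ATM was at 55.0 to 87.7 CPM, and in those labelled HEK293T ATM KO, which the study describes as ATM inhibitor, its log2 difference from HEK293T DMSO was -0.06 ± 0.12 (SE, edgeR quasi-likelihood test, adjusted p = 0.977).

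Of 18591 genes tested, 974 (5.24%) were past an absolute log2 fold change of 1 and an adjusted p of 0.05 between KO and WT. Of these, 520 (2.80%) were higher and 454 (2.44%) lower in KO. These shares describe the contrast by which the sets were defined, and nothing is read from them. Among the lower genes 180 were past a log2 fold change of 2 in size and 107 past 3, against 128 and 48 of the higher genes. The CPM ranges of the sets did not overlap for 369 of the 454 and for 416 of the 520. Without library 8 there were 1053 such genes, 798 of which were among the 974.

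The libraries labelled U2OS DMSO were not part of the choice and show on which side the difference lies. The level in U2OS DMSO was nearer to WT than to KO for 385 of the 454 lower genes (84.8%) and 399 of the 520 higher genes (76.7%). All 4 KO libraries lay below all 4 DMSO libraries for 335 of the lower genes, and above all 4 for 331 of the higher genes. For 38 of the lower and 60 of the higher genes the WT range stood apart from DMSO in the opposite direction and the KO range did not stand apart. In 1 fit of the 12 libraries, 2093 of 19694 genes (10.6%) were past the threshold between KO and U2OS DMSO and 632 (3.21%) between WT and U2OS DMSO. Both comparisons share the DMSO libraries. The DMSO cells belong to another experiment, so treatment and preparation cannot be told apart from the differences of either set to them.

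A first class of differences was all or none. In the KO libraries 58 genes had at most 3 counts in all 4 libraries together, out of 14374 genes with a mean of at least 1 CPM in WT. The 58 also had at least 1 count in every WT library, a condition not put on the 14374. The number near 0 depends on the summed depth, and it was 108 without library 6 and 121 without library 8. In the reverse direction, by the same rule, 89 genes of 14653 were at or under 3 counts in WT. Among genes with a mean of at least 5 CPM the numbers were 7 of 10630 in KO and 2 of 10885 in WT. Of the 58 genes, 44 code for proteins, 50 had a count in every U2OS DMSO library and 46 in every library labelled U2OS CPT. MEG3, an imprinted noncoding RNA, was the only one of the 58 at or under 3 counts in U2OS DMSO (0 counts), and it was named after its value was seen.

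The 7 genes with at least 5 CPM were ARHGEF10, SHOX2, TRIM59, MAGEC1, FBXO25, CLN8 and FAM43A. TRIM59, a RING-type ubiquitin ligase of the TRIM family (chromosome 3, 160432445 to 160485773), was at 27.5, 28.99, 38.9 and 43.1 CPM in WT and had 0 counts in each KO library. Against a floor of 3 counts over the KO set, this is at least 182-fold lower. It was at 26.7 to 56.8 CPM in U2OS DMSO and at 20.6 to 26.7 CPM in U2OS CPT. SHOX2, a homeobox transcription factor of the developing skeleton (chromosome 3, 158095954 to 158106503), was at 26.8, 37.6, 44.9 and 41.4 CPM in WT and at 0, 0, 0.174 and 0.172 CPM in KO. The WT to KO ratio of summed counts, each set over its own depth, was 297, with an exact 95% counting interval of 81.8 to 2462. MAGEC1, a cancer-testis antigen on the X chromosome (141903894 to 141909388), was at 17.6, 15.1, 18.9 and 24.3 CPM in WT, and in KO it had 0 counts in all but library 8, at 0.344 CPM. FAM43A (chromosome 3, 194686544 to 194689037) was at 7.76, 8.65, 8.49 and 10.9 CPM in WT and likewise had counts only in library 8 of the KO set, at 0.516 CPM.

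A contiguous block accounts for part of this class. At the end of the short arm of chromosome 8, from FBXO25 (start 406428) to ARHGEF10 (end 1958641), the 6 genes with at least 1 CPM in WT, which lie next to each other in order, were all near 0 in KO. ARHGEF10, a guanine nucleotide exchange factor, was at 40.2, 34.2, 41.6 and 44.2 CPM in WT and at 0, 0, 0 and 0.344 CPM in KO. CLN8, an endoplasmic reticulum protein mutated in neuronal ceroid lipofuscinosis, was at 7.76, 8.65, 10.9 and 10.1 CPM in WT and had 0 counts in each KO library, at least 48.5-fold lower. FBXO25, the substrate receptor of a ubiquitin ligase, was at 8.47 to 12 CPM in WT and ERICH1 at 5.65 to 12.1 CPM, and in KO neither passed 0.516 CPM in any library. TDRP and the antisense transcript CLN8-AS1 completed the block, at means of 2.53 and 3.20 CPM in WT and 0.043 and 0 CPM in KO. Reads of CLN8 and of its antisense partner were counted by a protocol that keeps the strand, and the setting used is not given in the sources used here. The next genes were lower in KO but present. KBTBD11 (start 1973878) was at 4.33 to 8.998 CPM in WT and 1.62 to 3.37 CPM in KO, and CSMD1 (start 2935353) at means of 16.2 and 7.56 CPM.

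On chromosome 3, by contrast, SHOX2 and TRIM59 were near 0 while genes between them were not. RSRC1, which overlaps the start of SHOX2 on the other strand, was at 77.6 ± 18.5 CPM in WT and 49.2 ± 14.6 CPM in KO (SD, n = 4 each). GFM1, a mitochondrial elongation factor, was at 55.2 ± 6.57 and 32.5 ± 9.25 CPM. SMC4, a condensin subunit whose annotated end overlaps TRIM59, was at 898 ± 103 and 624 ± 93.8 CPM, and KPNA4, the next gene beyond TRIM59, at 122 ± 27.01 and 93.1 ± 19.8 CPM. The KO levels of these neighbours were thus lower than in WT by a fraction, and those of SHOX2 and TRIM59 were at the floor.

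The sequences before the starts of 2 of the 7 genes are shown, those whose neighbours on either side were still present in KO and whose window holds no annotated exon. Neighbours here are the nearest tested genes with at least 1 CPM in WT, and distances run from start to start. LSG1, 45.8 kb before FAM43A, was at means of 92.4 CPM in WT and 88.7 CPM in KO. LDOC1, 728 kb before MAGEC1, was at 23.3 and 24.9 CPM. The genes on the other side were present but lower in KO. XXYLT1, 382 kb after FAM43A, had a log2 fold change of -1.06 ± 0.26 (SE), and SLITRK4, 1719 kb after MAGEC1, of -0.95 ± 0.18. Gene dosage between these neighbours was not measured, so the extent of the loss around each gene is not known. Promoters rich in CpG are those at which DNA methylation is known to silence genes. The windows shown were not chosen for their CpG content. These windows are the 250 bases before the RefSeq start (GRCh38.p14) of FAM43A, chr3:194685633-194685882, and of MAGEC1, chrX:141903644-141903893, both on the plus strand. Capitals mark each CG, which reads the same on both strands.
FAM43A: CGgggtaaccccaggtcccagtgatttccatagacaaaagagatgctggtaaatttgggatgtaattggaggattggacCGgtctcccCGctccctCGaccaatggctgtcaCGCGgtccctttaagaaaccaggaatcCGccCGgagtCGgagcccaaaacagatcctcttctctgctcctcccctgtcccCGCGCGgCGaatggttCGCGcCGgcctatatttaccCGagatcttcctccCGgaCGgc
MAGEC1: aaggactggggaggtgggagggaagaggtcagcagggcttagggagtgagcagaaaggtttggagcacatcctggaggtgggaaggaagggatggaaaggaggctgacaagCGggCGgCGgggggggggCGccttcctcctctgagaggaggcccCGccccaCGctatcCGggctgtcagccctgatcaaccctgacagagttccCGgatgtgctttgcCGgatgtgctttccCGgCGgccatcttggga
FAM43A has 19 CG in this window and MAGEC1 11. The median over 27305 such windows is 11, and 34.3% of them have at least 19 and 50.0% at least 11. SHOX2 and TRIM59, whose windows overlap an exon, have 6 and 25. Promoter sequence was at hand for 33 of the 58 genes, so it covers the class only in part. The median ratio of observed to expected CG was 0.654 in these 33, and 51.5% were over 0.6. Among genes with at least 1 CPM in WT, 10512 had promoter sequence, with a median of 0.844 and 83.6% over 0.6. Of the 89 genes near 0 in WT, 43 had promoter sequence, with a median of 0.308 and 30.2% over 0.6. Other genes past the threshold had medians of 0.782 (lower in KO) and 0.711 (higher in KO). A ratio below that of all genes was thus not particular to the genes near 0 in KO. Methylation was not measured, and a role of it was not tested.

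In the reverse direction the highest genes were TFF2 and RIPOR2. TFF2, a secreted trefoil peptide, had 0 counts in each WT library and was at 8.92, 11.6, 7.29 and 9.97 CPM in KO, at least 33.4-fold higher. It was at 0 to 0.344 CPM in U2OS DMSO and at 0 to 0.346 CPM in U2OS CPT. RIPOR2 was at 0, 0, 0.274 and 0.273 CPM in WT and at 6.49, 5.77, 8.33 and 9.28 CPM in KO.

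A second class of differences was shared by long stretches of neighbouring genes. For each of 14216 genes with at least 1 CPM in WT, the median log2 fold change of up to 12 neighbours on each side was taken, without the gene itself. In 22 stretches of at least 10 genes this local median was beyond 0.5 in size, and they held 708 of the genes (4.98%), 346 in 12 lower and 362 in 10 higher stretches. Between WT and U2OS DMSO only 2 such stretches with 29 genes were found, against 33 stretches with 914 genes between KO and U2OS DMSO. Of the 798 ordered genes past the threshold, 143 (17.9%) lay in a stretch, and 141 of these differed in the direction of their stretch. The stretches were found from the same fold changes, so both counts follow in part from that choice. Genes in the same stretch are not independent, and gene dosage was not measured.

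**Figure D1:**
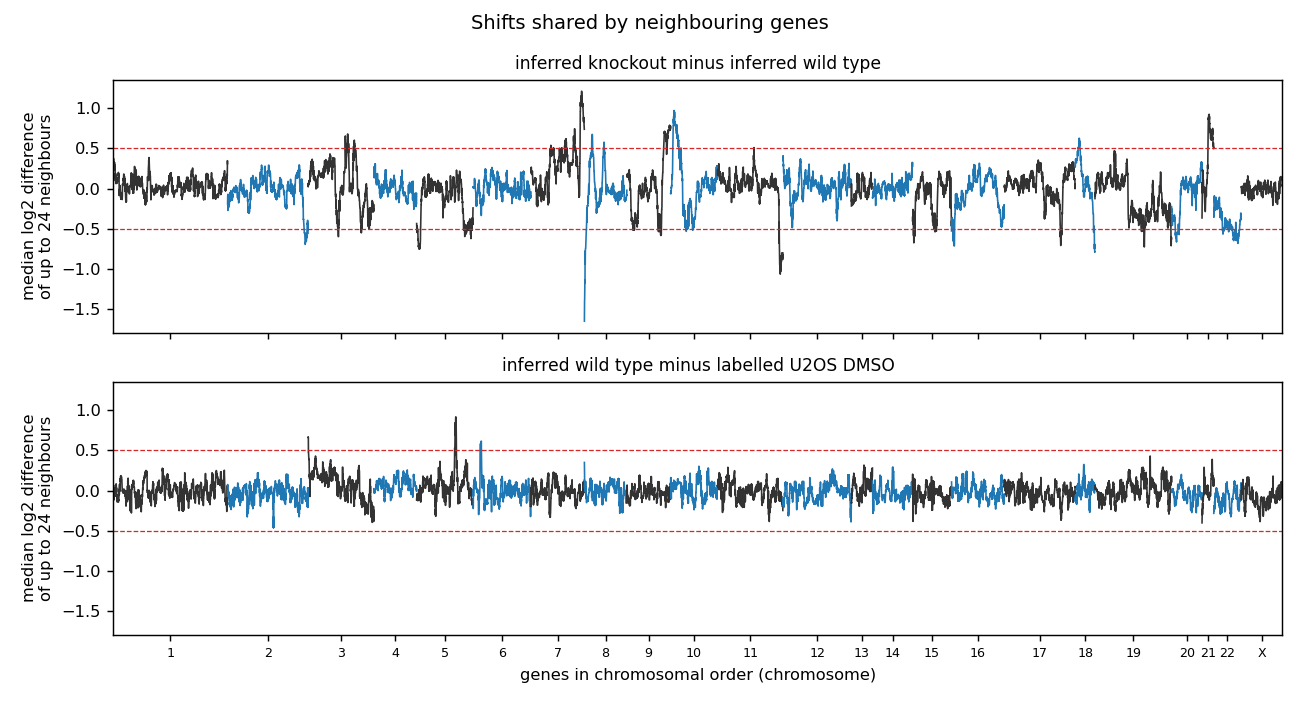
Median log2 difference of up to 24 neighbours along the genome, with genes in chromosomal order on the x axis and chromosomes in alternating colours, for inferred KO minus inferred WT (top) and inferred WT minus labelled U2OS DMSO (bottom). Dashed lines mark 0.5 in either direction, which the top trace crosses in 22 stretches of at least 10 genes and the bottom trace in 2.

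The lowest stretch lay at the end of the long arm of chromosome 11, from SIAE to LINC02714 (124633113 to 134763810). Its 44 genes had a median log2 fold change of -0.88, 43 were lower in KO, and 18 were past the threshold. CHEK1, the effector kinase of ATR, lies in it, and was at 43.0, 46.7, 43.5 and 57.5 CPM in WT and at 21.9, 11.6, 18.2 and 18.6 CPM in KO (log2 fold change -1.496 ± 0.18, SE). The neighbours EI24 and STT3A, the second a catalytic subunit of the oligosaccharyltransferase, had log2 fold changes of -1.31 ± 0.15 and -1.28 ± 0.16. CHEK1 was thus 0.53 lower on the log2 scale than the median of its neighbours (-0.96). NRGN, which codes for neurogranin and lies in the same stretch, went further, from 6.35 to 10.1 CPM in WT to 0 to 0.687 CPM in KO. ATM lies on the same chromosome outside this stretch, and its neighbours had a local median of 0.13.

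The highest stretch lay at the end of the long arm of chromosome 7 (148696467 to 159030195). Of its 53 genes, 52 were higher in KO, 29 were past the threshold and the median log2 fold change was 1.05. It holds KCNH2, a cardiac potassium channel, with 4.94, 6.06, 7.39 and 8.72 CPM in WT and 24.3, 26.9, 32.8 and 36.4 CPM in KO. KCNH2 and TMEM176A, with log2 fold changes of 2.09 ± 0.21 and 2.67 ± 0.31, exceeded their local medians of 1.11 and 1.15.

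Further higher stretches lay on chromosome 10 from GATA3 to WAC (73 genes, median 0.76) and on chromosome 21 from RUNX1 to PCNT (69 genes, median 0.75). OPTN, an autophagy receptor on chromosome 10, was at 38.5 to 58.6 CPM in WT and at 110 to 198 CPM in KO, a log2 fold change of 1.64 ± 0.16 against a local median of 0.90. DYRK1A, a dosage-sensitive kinase on chromosome 21, was at 32.9 to 44.4 CPM in WT and 70.7 to 82.2 CPM in KO, 1.02 ± 0.16 against 0.90. Lower stretches included the end of chromosome 5 (SLC9A3-AS1 to MYO10, 40 genes, median -0.67), the end of chromosome 8 that holds the block described above (25 genes, -0.78) and 3 stretches on chromosome 22, whose 333 genes as a whole had a median of -0.42. The median of whole chromosomes was otherwise between -0.11 and 0.37, with chromosome 21 at 0.37 and chromosome 7 at 0.27 the highest.

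In 21 of the 22 stretches the ranges of the KO and WT libraries did not overlap. The stretches had been chosen by this difference. The exception was the stretch of 13 genes on chromosome 9 from CERCAM to SPOUT1, with -0.81 to -0.23 in KO and -0.41 to 0.11 in WT. On chromosome 11, the median of the 44 genes relative to the mean of U2OS DMSO was between -1.29 and -0.98 in the 4 KO libraries, between -0.29 and -0.08 in WT and between -0.12 and 0.07 in the DMSO libraries themselves. On chromosome 7 the 53 genes were between 0.68 and 0.97 in KO, between -0.37 and -0.03 in WT and between -0.08 and 0.11 in DMSO. In the libraries labelled U2OS CPT, which were not used to find the stretches, the same medians were between -0.26 and -0.17 and between -0.34 and -0.17.

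The remaining differences were scattered over the genome. Of the 798 ordered genes past the threshold 655 lay outside the stretches, and 551 differed from their local median by more than 1 on the log2 scale. The genes named here are the largest differences in each direction among genes with a log2 CPM over 3 whose sets did not overlap, apart from those described elsewhere. C5orf46 was at 40.9 to 50.4 CPM in WT and 1.62 to 3.12 CPM in KO, with a log2 fold change of -4.13 ± 0.23. CDH11, the cadherin of osteoblasts, was at 31.8, 24.7, 34.8 and 39.0 CPM in WT and at 4.06, 5.29, 6.77 and 4.47 CPM in KO. Further genes of this kind were ART5, an ADP-ribosyltransferase (-3.47 ± 0.32), RBM23, an RNA-binding protein (-3.42 ± 0.27), RGS16, which accelerates GTP hydrolysis by G proteins (-2.94 ± 0.27), PTGFR, the prostaglandin F receptor (-2.85 ± 0.27), and TLL1, a metalloproteinase that processes procollagen (-2.69 ± 0.30). The sets did not overlap for any of these genes.

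In the higher direction the same limits left out genes of low level such as THBS2 and INHBB, which are given with their lists below. MET, the receptor of hepatocyte growth factor, was at 48.7, 37.2, 56.9 and 53.2 CPM in WT and at 219, 196, 283 and 258 CPM in KO (2.25 ± 0.16), while U2OS DMSO was at 34.6 to 38.0 CPM. SHOC1, a meiotic crossover protein, had the largest log2 fold change within these limits (3.18 ± 0.20), from 7.06 to 7.94 CPM in WT to 57.7 to 86.4 CPM in KO. PLAC8 was at 11.3 to 16.7 CPM in WT and 66.4 to 105 CPM in KO (2.70 ± 0.18). TUBA4A, an alpha-tubulin, was at 3.53, 6.92, 10.4 and 9.82 CPM in WT and at 38.1, 46.7, 40.4 and 90.7 CPM in KO, with library 8 the highest. MGLL, which hydrolyses monoacylglycerols, ATP6V0A1, a subunit of the vacuolar proton pump, TNNT2, cardiac troponin T, IL13RA2, a decoy receptor of interleukin 13, and the noncoding RNAs FLG-AS1 and PRECSIT had log2 fold changes between 2.06 and 2.66. For some of these the WT level was itself far from U2OS DMSO. TNNT2 had a log2 difference of 3.27 between WT and DMSO, PLAC8 of 1.93 and SHOC1 of 1.22, all with WT the higher.

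Of 35 measured genes of extracellular matrix and adhesion, 8 were lower and 3 higher in KO past the threshold, against 2.44% lower and 2.80% higher over all genes. The median log2 fold change was -0.42, against 0.04 over all genes. This list and those below were chosen with earlier results of these data known, so their shares are a description and no enrichment was tested. COL3A1, a fibrillar collagen, was at 237, 160, 264 and 210 CPM in WT and at 38.9, 34.2, 43.9 and 36.3 CPM in KO (-2.54 ± 0.17). COL6A3, a chain of the microfibrillar collagen, was at 58.6, 59.3, 72.8 and 55.6 CPM in WT and 5.68, 6.25, 9.03 and 4.98 CPM in KO (-3.24 ± 0.21), and lies in a lower stretch of chromosome 2 with a local median of -0.63. COL1A1, the main collagen of bone, lay in none of the stretches and was at 2508 to 3335 CPM in WT and 919 to 1382 CPM in KO (-1.29 ± 0.18). The glycoproteins TNC and THBS1, the laminin LAMA4, the basement membrane collagen COL4A1 and the integrin ITGB3 completed the lower members, with log2 fold changes of -2.59, -1.36, -1.99, -1.26 and -2.02. MATN2, MMP3 and THBS2 were higher, the last with a mean of 0.909 CPM in KO and 0 counts in WT, and leaving out 1 library left between 1 and 3 higher members.

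Of 22 measured genes of pluripotency and the TGF-beta family, 7 were lower and 2 higher in KO past the threshold, against the same 2.44% and 2.80% over all genes, with a median of -0.32. The 7 lower genes are ligands or antagonists of this family. INHBA, the subunit of activin A, was at 418, 335, 497 and 356 CPM in WT and at 122, 81.8, 100 and 103 CPM in KO (-2.03 ± 0.16). LEFTY1, an inhibitor of Nodal, was at 3.89 to 6.57 CPM in WT and 0 to 0.811 CPM in KO, and its neighbour LEFTY2 was among the 58 genes near 0. The ligands BMP2 and BMP6 had log2 fold changes of -1.40 ± 0.27 and -2.21 ± 0.39, and the antagonists NOG and SOSTDC1 of -1.27 ± 0.16 and -1.48 ± 0.28. BMP2 lies in a lower stretch of chromosome 20 with a local median of -0.56. GDF15 and INHBB were the higher members, the latter at a mean of 0.591 CPM in KO. INHBB was past the threshold in 1 of the 8 fits that each left out 1 library (without library 4), and LEFTY2 was not past it without library 5.

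Of 34 measured genes of ATM and damage signalling, CHEK1 was the only one past the threshold (2.94%, against 5.24% over all genes), and the median was -0.02. Elsewhere PERP, a desmosomal protein, and GDF15, a stress-induced cytokine, were past the threshold. GDF15 was at 20.5, 32.02, 35.9 and 33.5 CPM in WT and at 64.9, 92.9, 76.7 and 66.0 CPM in KO. CDKN1A, the p21 inhibitor of cyclin-dependent kinases, was at 76.2 to 125 CPM in WT and 77.9 to 162 CPM in KO, highest in libraries 7 and 8. Its log2 fold change of 0.15 ± 0.16 turned to -0.07 without library 8 and with library 7 kept. With neighbouring library numbers taken as a replicate block, an alternative chosen after seeing the data, it was 0.13. MDM2, a ubiquitin ligase, was at 102 to 157 CPM and 130 to 189 CPM, ranges that overlapped.

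Among the inhibitors of cyclin-dependent kinases CDKN2B was at the floor. CDKN2B, which codes for p15 and inhibits CDK4 and CDK6, was at 2.82, 1.30, 1.64 and 2.18 CPM in WT and had 0 counts in each KO library. It was at 0 to 1.20 CPM in U2OS DMSO and so lower there than in WT too. None of the 30 proliferation genes was past the threshold, against 5.24% over all genes, and their median was -0.17. PCNA, the sliding clamp of DNA replication, was the lowest with 165 to 185 CPM in WT and 97.7 to 122 CPM in KO, and lies in the same chromosome 20 stretch as BMP2.

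Of 8 measured genes of small heat shock proteins and clusterin, 2 were higher in KO past the threshold, against 2.80% over all genes. They were CRYAB and HSPB2, a pair of small heat shock protein genes. The 2 lie side by side on chromosome 11 and so may not be independent. CRYAB, alpha B-crystallin, was at 40.9, 44.6, 54.2 and 69.5 CPM in WT and at 114, 104, 104 and 211 CPM in KO (1.30 ± 0.17), with library 8 far above the others and a log2 fold change of 1.00 without it. It was at 21.7 to 40.4 CPM in U2OS DMSO, below every WT library. HSPB2 was at 0.547 to 1.09 CPM in WT and 1.62 to 7.05 CPM in KO. Clusterin (CLU), a secreted chaperone, was at 2404 to 4107 CPM in WT and 2514 to 3253 CPM in KO. Its log2 fold change was -0.06, and it lies in a higher stretch of chromosome 8 with a local median of 0.67. HSPB8 was at 6.27 to 19.8 CPM in WT and 2.23 to 25.96 CPM in KO, and HSPA1A, an inducible HSP70, at 171 to 219 CPM and 111 to 153 CPM (-0.57 ± 0.15). Of 44 measured genes of the HSP70 and HSP90 systems none was past the threshold, against 5.24% over all genes. In this list 34 had a negative log2 fold change and the median was -0.25. The member with the largest difference was DNAJC12 (-2.28 ± 0.90), at means of 0.979 CPM in WT and 0.129 CPM in KO. It was past the threshold without library 8, as was HSPA14 without library 3, 5 or 8, and HSPB8 was lower past the threshold without library 2.

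**Figure D2:**
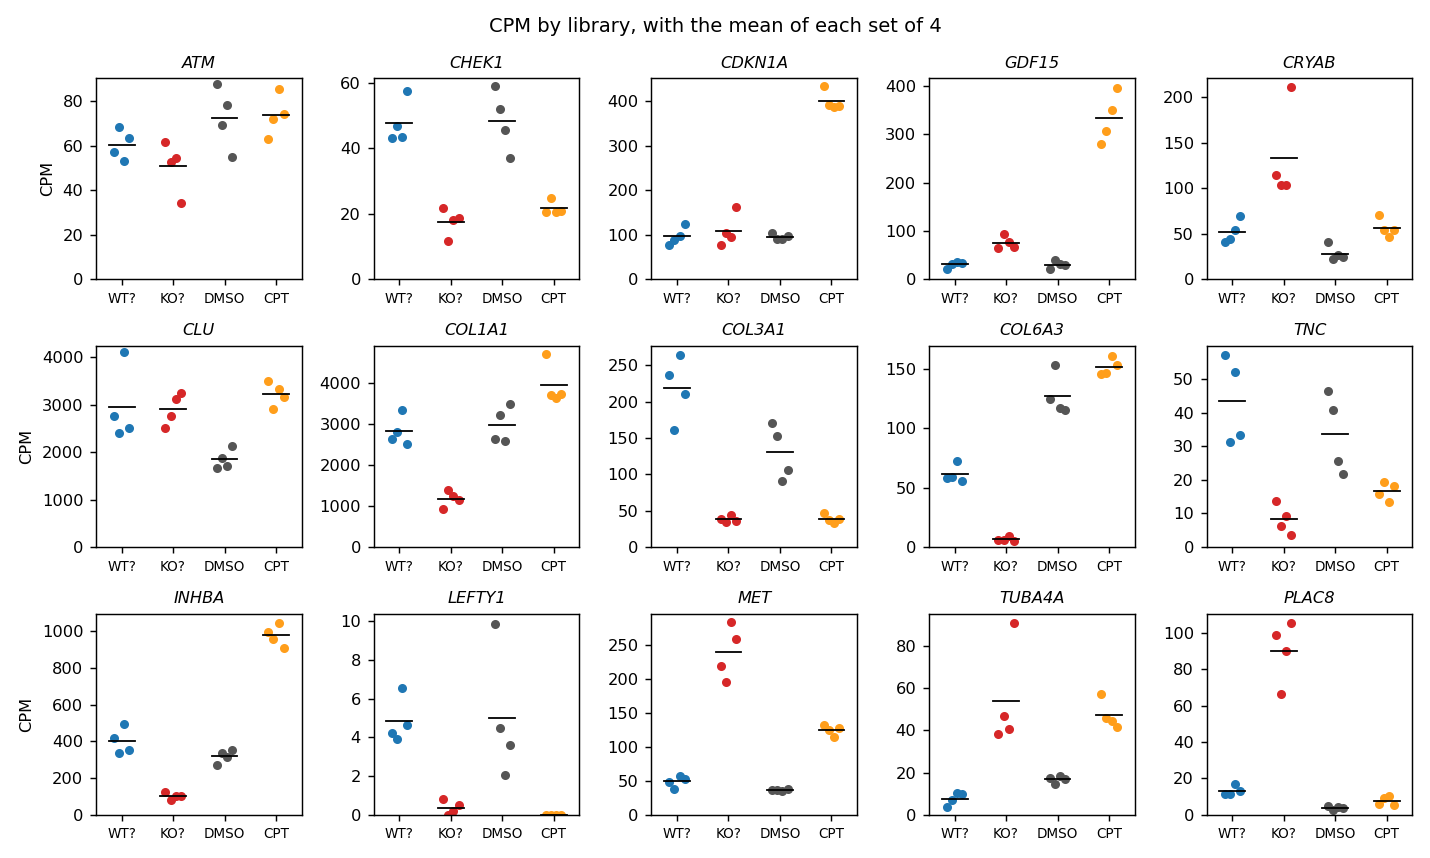
CPM of 15 genes by library, with a line at the mean of each set of 4, for inferred WT (WT?), inferred KO (KO?), labelled U2OS DMSO and labelled U2OS CPT. ATM and CLU overlap between WT and KO, while COL3A1, COL6A3, INHBA, MET and PLAC8 do not.

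Of 20 measured NRF2 targets, HMOX1, the heme oxygenase, and AKR1C3, an aldo-keto reductase, were higher (1.01 ± 0.20 and 1.86 ± 0.40), and the median was 0.41. This is 10.0% of the list past the threshold, against 5.24% over all genes (2.80% higher and 2.44% lower). HMOX1 was higher although its chromosome 22 neighbours had a local median of -0.46, and it was not past the threshold without library 1 or without library 8. Of 27 interferon-stimulated genes, IFIT3 and IFI27 were higher and IFI44L lower (11.1%, against the same 5.24%), with a median of -0.09. IFIT3 was not past the threshold without library 7 or 8, IFI27 without 3 or 6 and IFI44L without 7, and MX1 was past it without library 2. Of 13 cancer-testis genes, PRAME was lower besides MAGEC1 (15.4%, against 2.44% lower over all genes). PRAME was at 184 to 277 CPM in WT and 71.4 to 143 CPM in KO. None of the 19 serine and amino acid stress genes was past the threshold, and SESN2, a stress-inducible regulator of mTORC1, had the largest difference (0.77 ± 0.18).

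The libraries labelled U2OS CPT (26 to 29) and U2OS DMSO share no sample with the 8 libraries, so the same genes can be read in them. CPT traps topoisomerase 1 on DNA and so creates breaks. In U2OS cells 1520 of 19080 genes (7.97%) rose and 1049 (5.50%) fell with CPT (edgeR quasi-likelihood test, same threshold). Of the genes higher in KO, 494 were measured there, of which 148 (29.96%) rose with CPT and 26 (5.26%) fell. The 148 are 9.74% of the genes that rose. Of the genes lower in KO, 444 were measured there, of which 51 (11.5%) rose and 122 (27.5%) fell, the latter 11.6% of the genes that fell. Single genes went both ways. GDF15 rose by 3.63 ± 0.16 on the log2 scale (adjusted p = 8.28e-18), MET by 1.94 ± 0.12 (adjusted p = 3.5e-14) and CRYAB by 1.19 ± 0.15 (adjusted p = 3.08e-07), and COL3A1 fell by 1.55 ± 0.15 (adjusted p = 9.15e-10). INHBA, lower in KO, rose with CPT by 1.78 ± 0.12 (adjusted p = 2.46e-13), and KCNH2, higher in KO, fell by 1.45 ± 0.30 (adjusted p = 2.87e-04).

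CDKN1A rose with CPT by 2.24 ± 0.11 (adjusted p = 1.85e-16) and MDM2 by 2 ± 0.11 (adjusted p = 1.17e-15). Of 30 proliferation genes 12 fell, against 5.50% of all genes. Of the 7 genes near 0 in KO, none was past the threshold with CPT, and TRIM59 had the largest negative log2 difference (-0.68 ± 0.17, adjusted p = 0.00158).

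In HEK293T cells, none of 18413 genes (0%) was past the threshold between the 4 libraries labelled ATM KO and HEK293T DMSO by edgeR's quasi-likelihood test. In that test 1019 genes had an unadjusted p under 0.05. By DESeq2 0 genes were past the threshold, and by edgeR's likelihood ratio test 2. Without library 21 the quasi-likelihood test put 14 genes past the threshold. The genes that were lower in U2OS KO had a median log2 difference of -0.04 there, over the 353 measured, and those that were higher had 0.002 over 416. TRIM59 differed by -0.18 ± 0.13 (adjusted p = 0.936), CHEK1 by -0.18 ± 0.11 (adjusted p = 0.917), MET by 0.001 ± 0.11 (adjusted p = 0.999) and INHBA by -0.15 ± 0.18 (adjusted p = 0.967). A difference in response between the cell lines was not tested, and the treatment behind these labels, an inhibitor in the study's methods, differs from a knockout.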

How the data were processed

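Libraries were of the QuantSeq 3′ kind, and the authors deposited whole-number counts per gene from the Lexogen QuantSeq FWD UMI pipeline, without normalization. The genome build and annotation release are not given in the sources used here. The table holds 60107 genes, of which 56104 had a symbol, beside 92 spike-in rows and 5 summary rows, which were left out. Gene order and coordinates were taken from GENCODE 29 (GRCh38).

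CPM are counts per 1000000 counts on genes. Intervals and floors (3 counts) cover counting error only. Differences were fitted in R 4.3.3 with edgeR 4.0.16 (TMM, quasi-likelihood, keeping genes above 1 count in 2 or more libraries). A gene was past the threshold with a log2 fold change beyond 1 in size and a p under 0.05 after Benjamini-Hochberg adjustment. The SE is the log2 fold change over the square root of its F statistic. The labels do not say that libraries of a set came from separate cultures, and the study's methods describe 4 independent repeats. Alternatives used the likelihood ratio test, DESeq2 1.42.0, RLE factors, other filters and each library left out. The procedure was tested on simulated data.

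Results for 1 gene list and some genes are not reported here. The members and lists were chosen with earlier results of these data known. Named genes were a fixed set, those at the floor with at least 5 CPM in the other set, members of runs of neighbours, the 12 largest differences in each direction with a log2 CPM over 3 and no overlap, and list members past the threshold or, where there were none, the one with the largest difference. Runs of 3 or more neighbours past a log2 fold change of 1 numbered 10 lower and 9 higher, and the stretches were added after seeing the data. Chromosomes were used in place of chromosome arms, since centromere positions were not at hand. Libraries 10 to 17 were not used in the comparisons, apart from library 17 in 1 alternative.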

Additional observations from a re-analysis of the deposited data

Results flagged for a closer look

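In 14 of 252 sets of 4 libraries checked, the highest or lowest library lay far from the other 3, by Dixon's 95% criterion on the gap to its nearest neighbour. Chance gives about 1 in 20. Of these, 6 were library 8 of the inferred KO set. In library 8 CRYAB was at 211.2 CPM (others 104 to 114), TUBA4A at 90.74 CPM (38.1 to 46.7), NUB1 at 90.91 CPM (58.7 to 61.8), SMARCD3 at 15.64 CPM (7.30 to 8.66), PRAME at 143.0 CPM (71.4 to 82.8) and THBS1, the lowest, at 132.8 CPM (243 to 252). In other KO libraries, ENSG00000258593 was at 6.49 CPM in library 2 (0.481 to 1.22), SPA17 at 1.622 CPM in library 2 (7.22 to 8.33) and IL13RA2 at 19.09 CPM in library 6 (15.9 to 16.2). In the inferred WT set, MSANTD2 was at 14.28 CPM in library 3 (5.48 to 6.35), TMEM176B at 6.57 CPM in library 5 (2.45 to 3.03), TMEM176A at 0.0 CPM in library 1 (2.60 to 3.01), OPTN at 58.62 CPM in library 7 (38.5 to 41.1) and AKR1C3 at 3.545 CPM in library 7 (0.706 to 1.09).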

How the results depend on the processing

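Between inferred KO and WT, 974 genes (520 higher, 454 lower) were past the threshold. DESeq2 put 682 genes (347 and 335) past it, and edgeR's likelihood ratio test 1176 (656 and 520). There were 644 (346 and 298) with edgeR's filterByExpr, which tests fewer genes, 2415 (1195 and 1220) with no cutoff on the fold change and 2083 (1041 and 1042) with U2OS DMSO in place of WT. Leaving out 1 library gave 771 to 1053 genes, of which 702 to 892 were among the 974 and none was reversed. The log2 fold change of ATM then ran from -0.40 to -0.12. CLU turned positive with U2OS DMSO in place of WT (0.75), without library 5 (0.12) and without library 2 (0.005055), ADAMTS8 (0.028) and ENSG00000279077 (0.46) with U2OS DMSO in place of WT, and CDKN1A turned negative without library 8. Over the left-out libraries CLU ran from -0.1782 to 0.1211 and CDKN1A from -0.0687 to 0.2625. Over the other values of named genes under alternatives, 2133 kept their side of the threshold, 146 lost it and 25 gained it. With CPT, filterByExpr left 1652 genes, 919 of them higher. In HEK293T, the likelihood ratio test and the fit without a filter each called 2 genes (1 higher, 1 lower), and leaving out 1 library gave 0 to 14 (0 to 3 higher, 0 to 11 lower). The 58 genes near 0 in KO became 13 when 0 counts were required, 7 at 5 CPM, and 62 to 121 with 1 library left out. The 89 near 0 in WT became 9 and 2. Runs of lower neighbours numbered 5 at 5 CPM and 65 with runs of 2 genes, and runs of higher neighbours 40 with runs of 2. A cutoff of 0.75 left 168 genes in stretches, and leaving out 1 library 541 to 865. The labels pair no libraries, so no pairing by the labels could be fitted. With neighbouring numbers taken as a replicate block, an alternative chosen after seeing the data like the 0.75 cutoff, 1016 genes were past the threshold. Deviations of neighbouring numbers correlated by 0.105 to 0.521, and library 6 correlated best with library 1 (0.145). At these depths a gene near 1 CPM gives only a few counts per library, so its absence was not detectable in a single library.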
